A study of Mus musculus with 15 samples.

Results

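The genes described here encode the nuclear-encoded subunits of respiratory complexes II, III and IV and of ATP synthase (complex V), together with cytochrome c. Members were the protein-coding genes with the mouse symbols Sdha, Sdhb, Sdhc, Sdhd, Cyc1 and Cycs, and those whose symbols start with Uqcr, Cox4i, Cox5, Cox6, Cox7, Cox8 or Atp5. Assembly factors were left out. The rule found 50 of the 55487 genes in the tables: 4 of complex II, 9 of complex III, 1 for cytochrome c, 18 of complex IV and 18 of complex V. RNA was measured by sequencing, after removal of ribosomal RNA, in a midline piece of the left ventricular free wall of male mice aged 225 days. The kidney disease group held 7 mice of the genotype Col4a5 Knockdown, which the series' design text calls collagen IV knockout animals, and the comparison group held 8 wild-type littermates. All animals were fed normal chow. The labels place the mutants at the equivalent of human chronic kidney disease stage 4-5, and they give 2 anaesthetics, isoflurane in the titles and a ketamine and xylazine mix in the protocol. No promoter, Cre driver or tissue restriction of the Col4a5 change is stated in the labels. The study asked how the heart's metabolism changes in chronic kidney disease, and it also took this tissue for respirometry, which is not analysed here.

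In the inner mitochondrial membrane, complex II (succinate dehydrogenase) oxidises succinate and reduces coenzyme Q. Complex III passes electrons from coenzyme Q to cytochrome c, complex IV passes them from cytochrome c to oxygen, and ATP synthase uses the proton gradient that complexes I, III and IV build to make ATP. Complexes III, IV and V mix subunits from the nuclear and the mitochondrial genome, while all subunits of complex II are nuclear-encoded. Several complex IV subunits exist as a heart and skeletal muscle isoform and a widely expressed isoform, and ATP synthase draws its c subunit from several genes that encode the same mature protein. The ventricle is among the tissues richest in these transcripts.

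Library totals were 54263014 to 65519279 counts for the mutants and 48748379 to 57962094 for the wild-type animals. Members took 2.71 to 3.74% of these counts in the mutant libraries and 2.37 to 3.09% in the others. CPM below are the counts of a gene over the library total, scaled with TMM factors. Ventricular cardiomyocyte markers had a sum between 114724 and 135581 CPM in the mutants, and between 134407 and 145041 CPM in the wild-type animals. None of those 10 markers passed the test. The summed macrophage markers did not overlap between the groups, at 410 to 579 CPM against 300 to 360 CPM, and 7 of 10 rose. Nor did B cell markers, at 13.8 to 20.2 CPM against 6.21 to 12.7 CPM, and 4 of 5 rose. Fibroblast markers summed to 1113 to 1426 CPM against 924 to 1197 CPM, and 4 of 8 rose. None of the 10 marker lists held a gene at 0 in all libraries. In pieces of whole tissue, fewer cells of a type and less RNA per cell cannot be told apart.

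Of the 50 members, 47 had enough counts to be tested. None changed between kidney disease and wild type by edgeR's quasi-likelihood test with Benjamini-Hochberg adjustment over all genes tested, where 1.28% of the 20718 genes passed (0.811% higher and 0.473% lower). DESeq2 and limma-voom also called none of them, with 1 at an unadjusted p under 0.05 in each. One member, Sdha, had an unadjusted p under 0.05, beside 12.4% of all genes. The smallest adjusted p of a member was 0.37. The log2 changes (kidney disease minus wild type) ran from -0.14 for Sdha to 0.25 for Cox4i2, with a median of 0.06 beside 0.00 for all genes. They were positive for 37 members and negative for 10, where 51.2% of all genes were positive. The 95% interval of the change lay within 0.5 log2 units on either side of 0 for 45 of the 47, all but Cox4i2 and Cox6b2. For no member were the groups free of overlap, a separation that 0.565% of all genes showed.

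**Figure D1:**
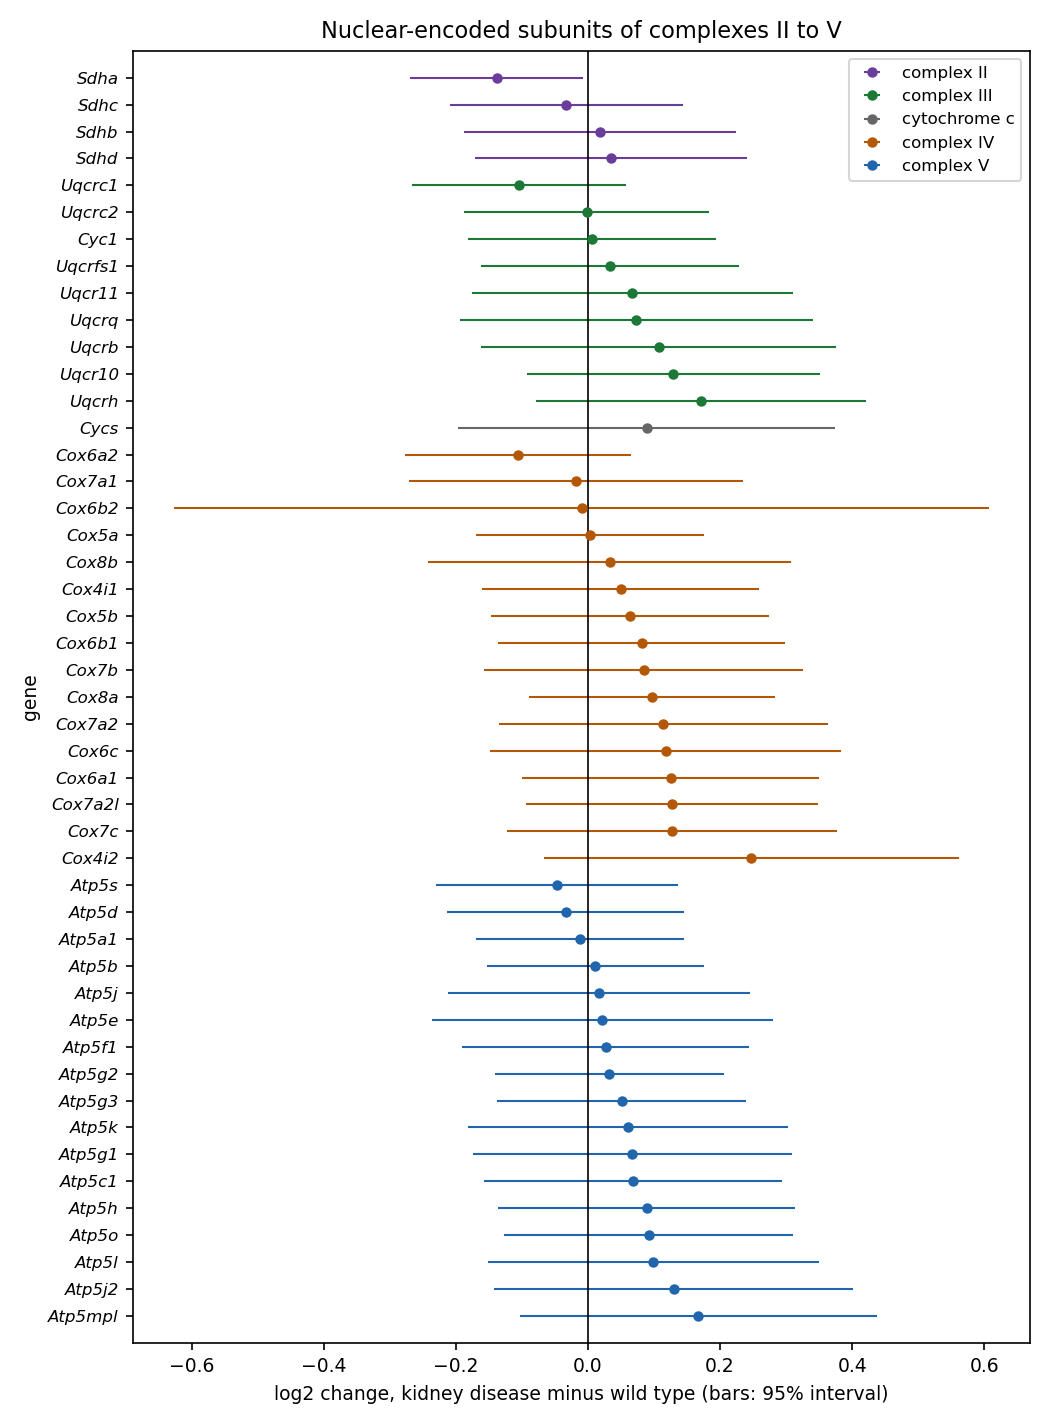
Log2 change in kidney disease against wild type (x axis) for each of the 47 members tested (y axis, ordered within each complex), with points for the fitted change and bars for its 95% interval, coloured by complex. Changes run from -0.14 (Sdha) to 0.25 (Cox4i2), the interval of Sdha alone leaves out 0 before adjustment, and no member passed the adjusted threshold.

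The members moved together from library to library far more than they differed between the groups. For each library, the median was taken over members of log2 CPM minus the gene's mean over all 15 libraries. This median lay between -0.16 and 0.53 in the kidney disease libraries and between -0.41 and 0.17 in the wild-type ones. Kidney disease replicate 6 stood apart at 0.53, with 45 of 47 members above their own mean. Wild-type replicate 7 stood apart in the other direction at -0.41, with 46 members below their own mean. In wild-type replicate 8 all 47 members lay above their mean, and in wild-type replicate 6 all 47 lay below it. The next highest kidney disease library, replicate 1, was at 0.08.

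Other genes with short transcripts deviated in the same direction as the members in both of these libraries. Among 1311 non-member genes with at most 2500 annotated exon bases and more than 10 CPM, the median deviation was 0.34 in kidney disease replicate 6 and -0.30 in wild-type replicate 7. Among 1486 such genes with more than 9000 exon bases it was -0.18 and 0.07. With a length trend removed within each library, the members' median deviation was 0.23 in kidney disease replicate 6 and -0.20 in wild-type replicate 7. Replicate 6 of the kidney disease group also had the lowest summed ventricular cardiomyocyte, atrial (35.6 CPM) and erythroid (310.2 CPM) markers and the highest macrophage and smooth muscle markers of all libraries. The summed skeletal muscle markers were highest of all libraries in kidney disease replicate 6 (1638 CPM) and lowest of all in wild-type replicate 7 (890.3 CPM), as were the members. The skeletal muscle list held Acta1, Ckm, Mybpc1, Myh4, Myh1 and Tnnt3. Of these 6 genes, 3 had enough counts to be tested, so the sum does not establish that skeletal muscle was present. The part of all these markers in the members' levels was not tested.

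**Figure D2:**
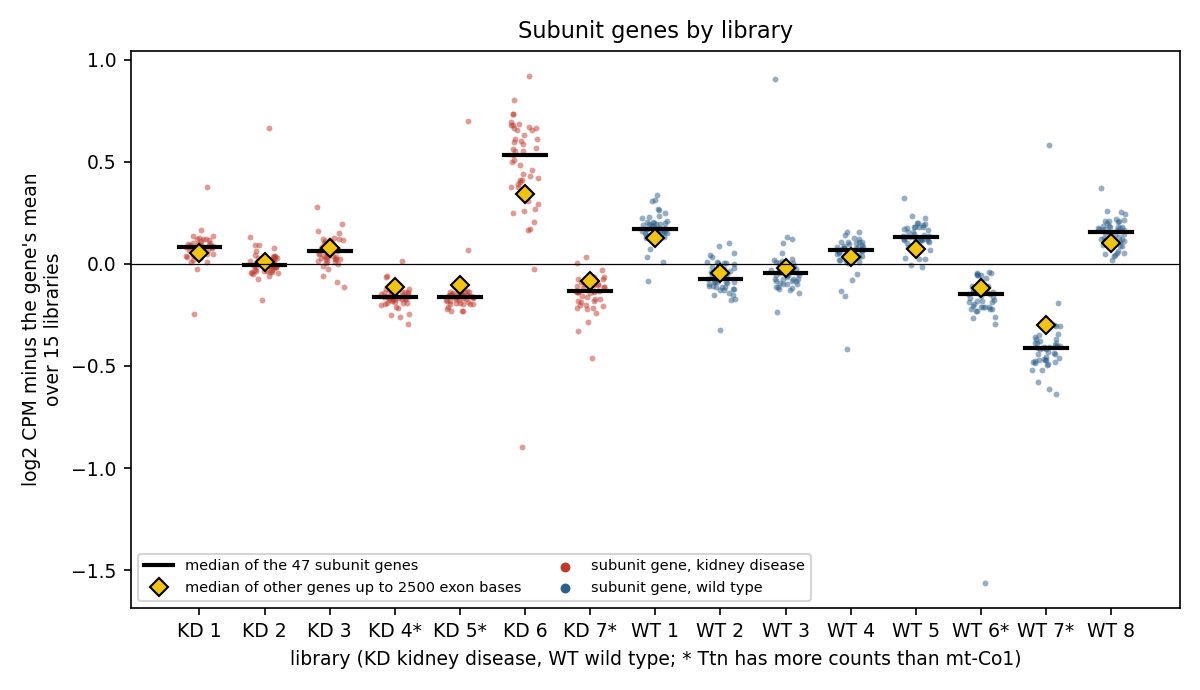
Deviation of each member's log2 CPM from its mean over 15 libraries (y axis), by library (x axis), with dots for the 47 members, a black bar for their median and a yellow diamond for the median of 1311 other genes of at most 2500 exon bases. The bar stands at 0.53 in kidney disease replicate 6 and at -0.41 in wild-type replicate 7, and the diamond lies on the same side of 0 as the bar in both.

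The sign of the members' small shift differed with the libraries used. Without kidney disease replicate 6 the median log2 change was -0.04, with 10 members positive and 37 negative. Without wild-type replicate 7 it was 0.01, with 26 positive. Without both, it was -0.09, with 2 members positive (0 called). These libraries were picked after the data were seen, as the kidney disease library highest and the wild-type library lowest for the members. Leaving them out lowers the change by that choice, so the -0.09 is no separate check of the sign. Within the 5 libraries in which Ttn has more counts than mt-Co1 (kidney disease 4, 5 and 7 and wild type 6 and 7), which leave out kidney disease replicate 6, it was 0.12, with 45 of 47 positive. Within the other 10 libraries, which keep kidney disease replicate 6 but not wild-type replicate 7, it was 0.11, with 42 positive. The 5 libraries with more Ttn keep wild-type replicate 7, whose members had a median deviation of -0.41. Replicate 6, the only other wild-type library there, was at -0.15, beside -0.16, -0.16 and -0.13 in the mutants. One subset thus keeps wild-type replicate 7 and the other keeps kidney disease replicate 6, so neither gives the shift without both. The part of these libraries in either shift was not tested. With the length trend used as an offset in the fit, the median was -0.00, with 23 members positive and 24 negative. That fit called 2.19% of all genes and 1 member, Cox6a2, which was lower by a log2 change of -0.18 (SE 0.05, adjusted p = 0.045).

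Complex II had a median log2 change of -0.01, with 2 of its 4 genes positive. Sdha encodes the flavoprotein that holds the succinate site, and its level was 1215, 1301 and 1383 CPM (lowest, median and highest library) in kidney disease. In wild type it was 1187, 1440.0 and 1545 CPM. The groups overlapped, although the kidney disease median lay below the wild-type median. The log2 change was -0.14 (SE 0.06, adjusted p = 0.37). With each library left out in turn, it ran from -0.17 to -0.12. Sdha was the only complex II gene whose highest kidney disease library was not replicate 6.

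Sdhb, the iron-sulphur subunit, had 667, 755 and 1024 CPM in kidney disease. Its wild-type levels were 581, 773 and 871 CPM, and the log2 change was 0.02 (SE 0.10). Sdhb therefore showed similar medians and a single high library, kidney disease replicate 6. Sdhc and Sdhd encode the membrane anchor that binds coenzyme Q and haem. Sdhc had 327, 384 and 459 CPM in kidney disease and 300.2, 387 and 458 CPM in wild type, with a log2 change of -0.03 (SE 0.08). Sdhd had 265, 293 and 395 CPM against 214, 303 and 333 CPM, with a log2 change of 0.04 (SE 0.10). The groups covered nearly the same range for Sdhc and overlapped for Sdhd. Per kilobase of annotated exon, the mean level of the 4 genes ran from 118 CPM for Sdhc to 343 CPM for Sdhb.

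Complex III had a median log2 change of 0.07, with 7 of 9 genes positive. Uqcrh, the hinge protein that sits by cytochrome c1, had the smallest p among its positive genes. It had 304, 346 and 539.7 CPM in kidney disease and 234, 323 and 386 CPM in wild type. Its highest library was again kidney disease replicate 6, and the log2 change was 0.17 (SE 0.12, adjusted p = 0.62). Uqcrc1, a core subunit on the matrix side, was the negative gene with the smallest p. It had 1173, 1299 and 1508 CPM in kidney disease and 1086, 1457 and 1523 CPM in wild type. The groups overlapped over most of their range, with a log2 change of -0.10 (SE 0.08, adjusted p = 0.66). Uqcr11, a small subunit, had the highest level per kilobase in the complex at 601 ± 108 CPM (SD over 15 libraries). Its levels were 332, 377 and 576 CPM in kidney disease and 272, 388 and 429 CPM in wild type, with a log2 change of 0.07 (SE 0.12).

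Neither cytochrome c1 of complex III nor cytochrome c, which carries electrons between complexes III and IV, separated the groups. Cyc1, the membrane-bound cytochrome c1 of complex III, had 720.3, 836 and 1069.5 CPM in kidney disease and 620.4, 855 and 910.0 CPM in wild type. Its log2 change was 0.01 (SE 0.09). Cycs, the soluble carrier, had 195, 248 and 394 CPM in kidney disease and 158, 249 and 287 CPM in wild type. The medians lay side by side, and the log2 change was 0.09 (SE 0.14, adjusted p = 0.87). Annotated processed copies of the Cycs coding sequence, 4 of them, held counts equal to 11.2% of its own level, so its counts depend on how multiply mapped reads were treated.

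Complex IV had a median log2 change of 0.08, with 13 of 16 tested genes positive. Its genes include isoform pairs, of which one isoform is typical of heart or skeletal muscle, lung or testis and the other is widely expressed. Cox6a2 (muscle) and Cox6a1 (widely expressed) encode a subunit that regulates the enzyme in response to nucleotides. Cox6a2 had the highest level per kilobase in the complex, 1359 ± 158 CPM, beside 87.0 ± 14.1 CPM for Cox6a1. Its levels were 782, 873 and 1035 CPM in kidney disease and 744, 975 and 1162 CPM in wild type, with a log2 change of -0.11 (SE 0.08, adjusted p = 0.67). Cox6a1 had 55.1, 59.2 and 81.9 CPM in kidney disease and 39.4, 59.2 and 74.8 CPM in wild type. The medians of Cox6a1 were alike, and the log2 change was 0.13 (SE 0.11, adjusted p = 0.72). Neither gene was called on its own in the main fit, while Cox6a2 was called lower with the length offset, as given above.

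Cox7a1 (muscle) and Cox7a2 (widely expressed) encode a small membrane subunit. Cox7a1 had 423, 499 and 761 CPM in kidney disease and 372, 529 and 615 CPM in wild type, with a log2 change of -0.02 (SE 0.12, adjusted p = 0.98). Cox7a2 had 186.6, 211 and 329 CPM against 149, 205 and 242 CPM, with a log2 change of 0.11 (SE 0.12, adjusted p = 0.78). Taken singly, both overlapped between the groups, with kidney disease replicate 6 the highest library in each.

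For Cox7a1 and Cox7a2, the ratio within the pair spread less from library to library than either gene alone. The difference between groups in the mean log2 ratio of counts was tested for 6 pairs with a two-sided exact permutation test over the 7 and 8 animals, adjusted over the 6. The pairs were chosen with earlier results of these data known, and the adjustment does not cover that choice. The log2 ratio of Cox7a1 to Cox7a2 was 1.12, 1.22 and 1.34 (lowest, median and highest) in kidney disease and 1.31, 1.36 and 1.42 in wild type. All 7 kidney disease libraries lay below the wild-type mean, and 6 lay below the lowest wild-type library. The group means were 1.23 ± 0.07 (SD, n = 7) and 1.37 ± 0.04 (SD, n = 8), a difference of -0.14 (exact permutation p = 0.00078, adjusted p = 0.0047). Per kilobase, Cox7a1 was 80.6% ± 0.799 of the summed pair in kidney disease and 82.0% ± 0.441 in wild type.

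The log2 ratio of Cox6a2 to Cox6a1 was 3.64, 3.83 and 3.96 in kidney disease and 3.81, 4.01 and 4.24 in wild type. All 7 kidney disease libraries again lay below the wild-type mean, and 3 lay below the lowest wild-type library. The means were 3.81 ± 0.12 (SD, n = 7) and 4.04 ± 0.15 (SD, n = 8), a difference of -0.23 (exact permutation p = 0.0076, adjusted p = 0.023). Cox6a2 was 93.5% ± 0.515 of the summed pair per kilobase in kidney disease and 94.4% ± 0.542 in wild type. In both pairs the muscle isoform held a slightly lower share, and remained by far the more abundant form.

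Both differences were nearly the same after the length trend was removed, at -0.15 for Cox7a1 over Cox7a2 (exact permutation p = 0.0017) and -0.23 for Cox6a2 over Cox6a1 (exact permutation p = 0.0076). Cox7a1 over Cox7a2 kept its call with each of the 15 libraries left out in turn, at -0.15 to -0.12. Cox6a2 over Cox6a1 lost its call without kidney disease replicate 3 (-0.20) and without kidney disease replicate 6 (-0.21), with adjusted p = 0.054 in each case by exact permutation. Among the 10 libraries in which mt-Co1 has more counts than Ttn the differences were -0.10 and -0.26, and among the other 5 they were -0.18 and -0.22. Neither subset passed (adjusted p = 0.10 and adjusted p = 0.30 for both pairs by exact permutation), and with 5 libraries p cannot go below 0.1.

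Macrophage, B cell and fibroblast markers, which mark cells that use the widely expressed isoforms, were higher in kidney disease by the values given above. The summed ventricular cardiomyocyte markers had a lower median (127829 against 139737 CPM). Endothelial markers had medians of 1193 against 1099 CPM (0 of 8 rose). Smooth muscle and pericyte markers had 749 against 689 CPM (0 of 6 rose), and erythroid markers 545 against 862 CPM (0 of 5 fell). The part of these markers in the isoform ratios was not tested. None of these 4 genes has an annotated near-identical copy of its coding sequence. The longest identical coding run is 12 bases within either pair. Cox6a2 shares 70 of its 680 exon bases with Itgad on the opposite strand, a gene at 1.30 CPM (kidney disease median) and 1.20 CPM (wild-type median).

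**Figure D3:**
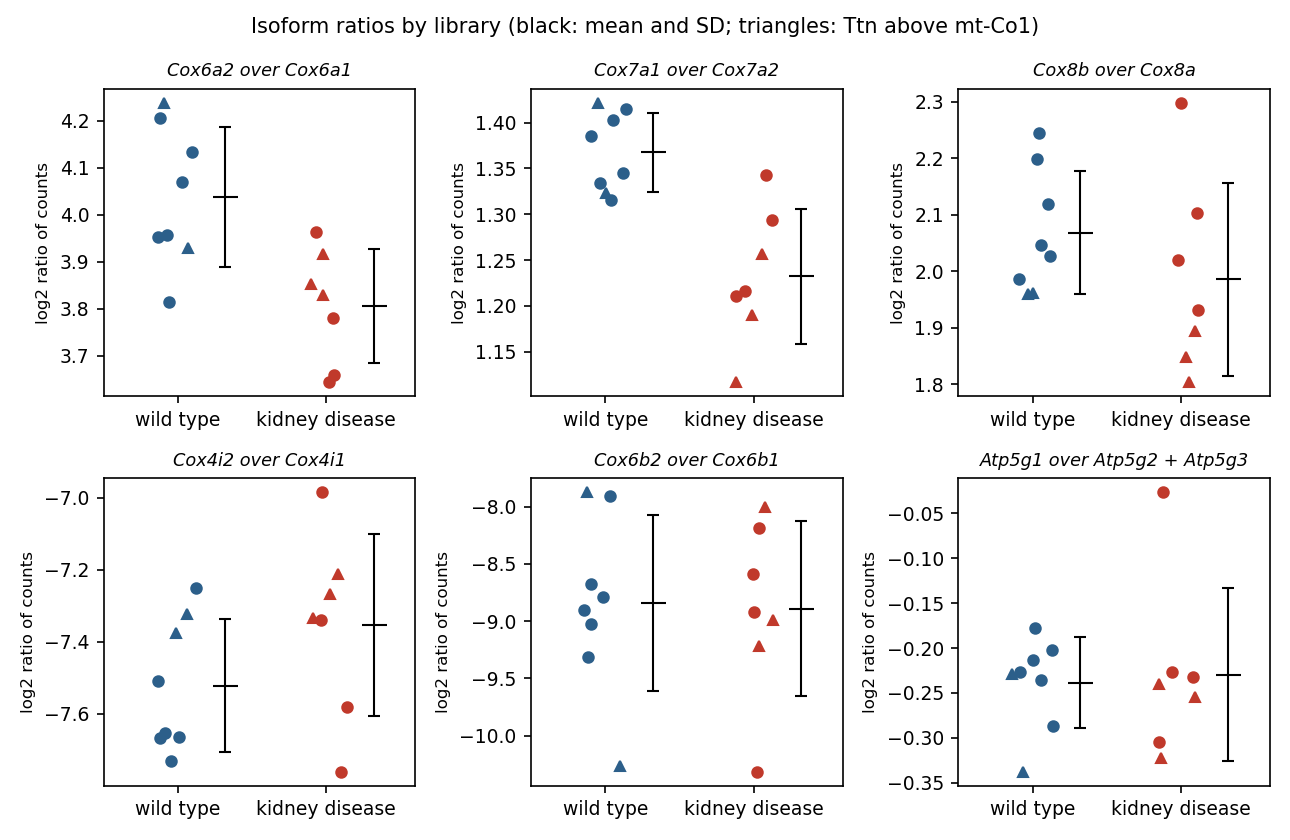
Log2 ratio of counts (y axis, scale differs by panel) of 6 isoform pairs in wild type and kidney disease (x axis), with 1 point for each library, triangles for the 5 libraries with more Ttn than mt-Co1 counts, and black marks for the mean and SD. All 7 kidney disease points of Cox7a1 over Cox7a2 and of Cox6a2 over Cox6a1 lie below the wild-type mean. The groups overlap in all 6 panels, and 4 kidney disease points of Cox8b over Cox8a lie below the lowest wild-type point.

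Of these 4 genes, promoters of 3 were found in the RefSeq table, and they are shown because the isoforms of a pair are transcribed from promoters of their own. Each sequence is the 250 bases before the RefSeq transcription start on GRCm38.p6, read in the direction of the gene. Its last bases may lie in the first exon of the GENCODE model. Capitals mark matches to the NRF1 letters (GCGCA, any base, then GCGC) or the ETS letters CCGGAAG on either strand.
Cox6a1 chr5:115348959-115349208, minus strand: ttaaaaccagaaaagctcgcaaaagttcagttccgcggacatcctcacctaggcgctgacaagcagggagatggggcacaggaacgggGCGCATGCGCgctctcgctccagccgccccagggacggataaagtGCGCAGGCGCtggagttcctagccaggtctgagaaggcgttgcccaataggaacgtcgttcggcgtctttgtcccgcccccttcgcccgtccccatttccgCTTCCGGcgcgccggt
Cox7a1 chr7:30183921-30184170, plus strand: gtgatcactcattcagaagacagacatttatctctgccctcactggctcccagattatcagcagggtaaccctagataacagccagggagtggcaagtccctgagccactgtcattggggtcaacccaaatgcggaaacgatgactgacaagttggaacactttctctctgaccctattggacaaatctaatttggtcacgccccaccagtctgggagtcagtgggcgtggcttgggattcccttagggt
Cox7a2 chr9:79759854-79760103, minus strand: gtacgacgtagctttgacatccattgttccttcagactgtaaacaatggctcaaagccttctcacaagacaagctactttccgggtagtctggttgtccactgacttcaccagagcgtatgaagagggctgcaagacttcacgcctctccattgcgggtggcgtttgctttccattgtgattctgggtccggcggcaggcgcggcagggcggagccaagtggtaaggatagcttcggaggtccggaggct
The promoters differ in their CpG content, with 26 CpG in Cox6a1, 14 in Cox7a2 and 4 in Cox7a1. Over the promoters of 17492 protein-coding genes the median was 10 and the quartiles were 3 and 19. Cox6a1 holds NRF1 letters at 2 places and ETS letters at 1, while the Cox7a1 and Cox7a2 windows hold none of the 4 motifs searched.

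Promoters of 37 of the 50 members were in the table. NRF1 letters stood in 7 of them (18.9%, Sdha, Sdhd, Cox6a1, Atp5c1, Atp5g2, Atp5h and Atp5k), beside 5.84% of all protein-coding genes. ETS letters stood in 9 (24.3%) beside 10.2%. The ERR letters AAGGTCA stood in 2 (5.41%) beside 4.18%, and the YY1 letters AAGATGGC in 1 (2.703%) beside 1.77%. Motifs were searched on both strands. A match is a description of the letters and not a binding site. NRF1 and GABP, an ETS factor, are classical activators of respiratory genes.

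Among the other complex IV pairs no ratio differed beyond its spread. Cox8b is the muscle isoform of a subunit whose widely expressed form is Cox8a. Cox8b had 315, 362 and 599 CPM in kidney disease and 272, 376 and 449 CPM in wild type, with a log2 change of 0.03 (SE 0.13). Cox8a had 86.0, 91.7 and 122 CPM against 69.9, 88.2 and 113 CPM, with a log2 change of 0.10 (SE 0.09). Between the groups, the log2 ratio of Cox8b to Cox8a differed by -0.08 (exact permutation p = 0.28, adjusted p = 0.42), and 5 of 7 kidney disease libraries lay below the wild-type mean, 4 of them below the lowest wild-type library. Kidney disease replicate 6 had the highest ratio, and without it the difference was -0.13 (exact permutation p = 0.044, adjusted p = 0.089). The third muscle isoform ratio passed in neither case.

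Cox4i1 is the widely expressed form of subunit 4, and Cox4i2 is the form of lung and vascular cells that is raised by low oxygen. Cox4i1 had 899, 1025 and 1386 CPM in kidney disease and 744, 1023 and 1162 CPM in wild type, with a log2 change of 0.05 (SE 0.10). Cox4i2 was low, at 4.87, 5.92 and 10.9 CPM against 4.48, 5.33 and 7.48 CPM, and had the largest positive change of any member, 0.25 (SE 0.15, adjusted p = 0.55). Without kidney disease replicate 6 the change of Cox4i2 was 0.07. For Cox4i2 over Cox4i1 the log2 ratio differed by 0.17 (exact permutation p = 0.16, adjusted p = 0.32).

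Cox6b1 is the widely expressed form of an intermembrane-space subunit, and Cox6b2 is its testis form. Cox6b1 had 363, 403 and 598 CPM in kidney disease and 307, 405 and 458 CPM in wild type, with a log2 change of 0.08 (SE 0.10). Cox6b2 lay near the detection limit, at 0.470, 0.880 and 1.42 CPM against 0.296, 0.926 and 1.64 CPM, with a log2 change of -0.01 (SE 0.29). Its 16 to 93 counts in a library make this the least precise change among the members tested. For Cox6b2 over Cox6b1 it differed by -0.05 (exact permutation p = 0.90, adjusted p = 0.90). Cox7b2 and Cox8c, further testis forms, were not tested. Cox7b2 had 0 to 10 counts in a library, and Cox8c had 0 in all 15.

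Complex V had a median log2 change of 0.05, with 14 of 17 tested genes positive. Atp5a1 encodes the alpha subunit of the catalytic head and had the highest level per kilobase of all members, 1365 ± 126 CPM. It had 3834, 4324 and 4905 CPM in kidney disease and 3459, 4355 and 4759.8 CPM in wild type. The ranges nearly coincided, and the log2 change was -0.01 (SE 0.08). Atp5mpl, a small membrane subunit, had the smallest p of the positive genes. It had 79.5, 89.0 and 159.6 CPM in kidney disease and 66.1, 90.0 and 103 CPM in wild type, with a log2 change of 0.17 (SE 0.13, adjusted p = 0.67). The medians of Atp5mpl were alike, and kidney disease replicate 6 stood alone above every other library. Atp5s, a coupling factor at a low level, had 13.1, 13.7 and 17.6 CPM against 11.6, 15.2 and 18.4 CPM, with a log2 change of -0.05 (SE 0.09, adjusted p = 0.90).

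The 3 genes Atp5g1, Atp5g2 and Atp5g3 encode the c subunit of the rotor ring. Atp5g1 had 686, 776 and 1216 CPM in kidney disease and 569, 802 and 901 CPM in wild type, with a log2 change of 0.07 (SE 0.12). Atp5g2 had 89.9, 99.99 and 136 CPM against 84.5, 103 and 114 CPM, with a log2 change of 0.03 (SE 0.08). Atp5g3 had 741, 859 and 1103 CPM against 635, 851 and 916 CPM, with a log2 change of 0.05 (SE 0.09). Per kilobase, Atp5g3 was the highest of the 3 at 386 ± 49.1 CPM, ahead of Atp5g1 at 165 ± 29.3 and Atp5g2 at 61.5 ± 7.34 CPM. Before division by length, Atp5g1 and Atp5g3 were alike, with means of 808 and 842 CPM. Their order per kilobase rests on annotated exon lengths of 4912 and 2181 bases, which may overstate the length of the transcripts in use. The log2 ratio of Atp5g1 to the sum of the other two differed by 0.01 (exact permutation p = 0.85, adjusted p = 0.90).

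The 22 members not given singly had log2 changes from -0.03 to 0.13, of which 20 were positive, and the smallest adjusted p was 0.70. The second gene annotated as Atp5o (ENSMUSG00000116933), a readthrough model, had 0 counts in all libraries. All of its 530 exon bases belong also to Atp5o (45.9%) or Donson (54.1%), so reads there may not have been assigned to it. Near-identical annotated copies of the coding sequence were found for 18 members, and for 9 of them the copies' counts exceeded 5% of the member's own. The largest share was 29.9% for Atp5l, a membrane subunit with 9 copies, followed by 13.4% for Uqcrb and 11.6% for Atp5o. These members' levels are uncertain to that extent.

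None of the mitochondrially encoded partners in the same complexes passed. All 6 (mt-Cytb, mt-Co1, mt-Co2, mt-Co3, mt-Atp6 and mt-Atp8) had negative log2 changes, with a median of -0.17, beside a members' median whose sign differed with the libraries used, as given above. For mt-Cytb, the only mitochondrially encoded subunit of complex III, the log2 change was -0.23 (SE 0.08, adjusted p = 0.22). The log2 ratio of summed nuclear-encoded to summed mitochondrially encoded CPM had a higher median in kidney disease for complexes III, IV and V. For complex III it was -2.09, -1.94 and -1.51 in kidney disease and -2.34, -2.14 and -1.87 in wild type. For complex IV it was -3.13, -3.06 and -2.74 against -3.31, -3.23 and -3.06, and for complex V it was 4.34, 4.67 and 5.11 against 4.25, 4.39 and 4.80. The groups overlapped in all 3 complexes, and kidney disease replicate 6 held the highest value for complexes III and IV. No test was made of these ratios, which were looked at after the values were seen. The complex IV sum was mostly mt-Co1, with a wild-type median of 54382.5 CPM beside 948 for mt-Co2 and 901 for mt-Co3. For complex V, the wild-type medians were 577 CPM for mt-Atp6 and 93.4 CPM for mt-Atp8. Near-identical copies of the mitochondrial genes were not searched, and the handling of multiply mapped reads is not given. The sizes of these ratios are therefore uncertain.

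**Figure D4:**
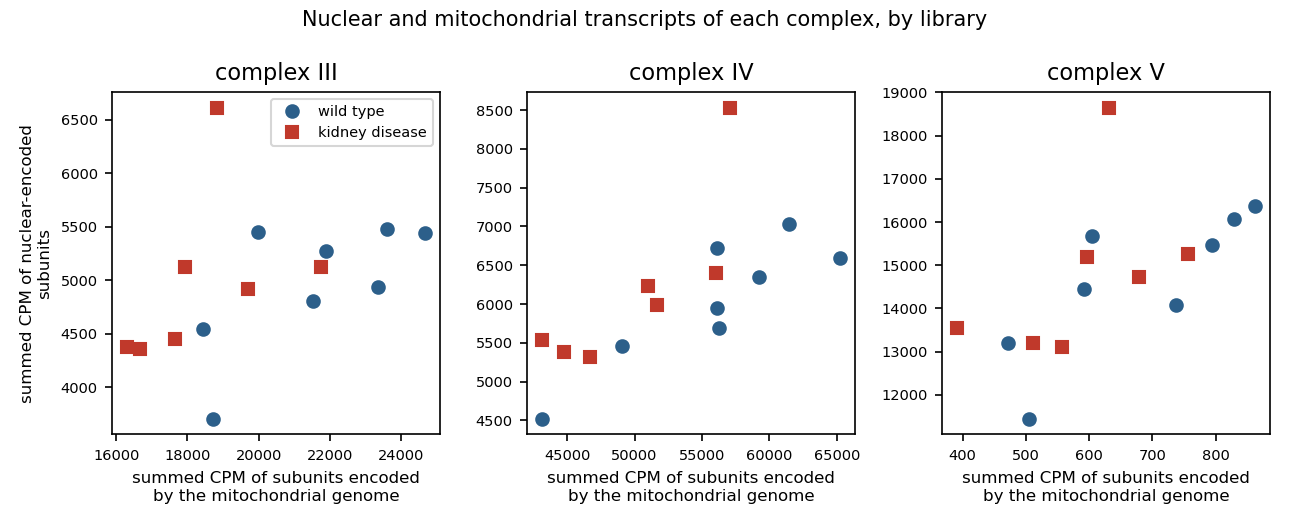
Summed CPM of nuclear-encoded subunits (y axis) against summed CPM of mitochondrially encoded subunits (x axis) for complexes III, IV and V, with 1 point for each library. Kidney disease replicate 6 is the highest point in each panel (6613 CPM of nuclear-encoded subunits in complex III, 8532 in complex IV and 18651 in complex V), and in complex III the median of the mitochondrially encoded sum is 17944 CPM in kidney disease and 21718 CPM in wild type.

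Other genes of the pathway gave no call. Of 37 assembly factors, 35 were tested, with 18 positive, 17 negative, a median of 0.01 and 3 at an unadjusted p under 0.05. Uqcc1, which helps to build cytochrome b into complex III, had the smallest p among the negative genes. It had 106, 119 and 134 CPM in kidney disease and 106, 139.5 and 154 CPM in wild type, with a log2 change of -0.21 (SE 0.07, adjusted p = 0.20). Cox16, a complex IV assembly factor, had the smallest p among the positive genes, with a log2 change of 0.17 (SE 0.12, adjusted p = 0.63).

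Of 20 tested genes of coenzyme Q synthesis and of the enzymes that feed electrons into it, 4 were positive and 16 negative, with a median of -0.04. Coq8a, a kinase-like protein of coenzyme Q synthesis, ranged between 542 and 636 CPM in the mutants and between 563 and 812 CPM in wild type, with a log2 change of -0.18 (SE 0.07, adjusted p = 0.27). For its relative Coq8b, at a far lower level, it was 0.18 (SE 0.08, adjusted p = 0.33). Of 5 tested genes for the ADP, ATP and phosphate carriers and the ATP synthase inhibitor, 4 were positive, with a median of 0.10. For Atpif1, the inhibitor that binds ATP synthase when the proton gradient fails, the log2 change was 0.13 (SE 0.10, adjusted p = 0.70). The phosphate carrier Slc25a3 was the negative one, at -0.01 (SE 0.08, adjusted p = 0.97).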

How the data were processed

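Each deposited table gives, for 1 library, the authors' raw read count per gene with CPM and FPKM values. The tools named in the submitters' processing notes are bcl2fastq, STAR 2.7.9a, featureCounts 2.0.3 and Subread, and the build is GRCm38. How strand and multiply mapped reads were counted is not given in the sources used here, and members that share exon bases with another gene, or have near-identical copies, are uncertain. The authors' deposited CPM and FPKM values were not used, and CPM were computed from the counts. Per the labels' protocols, total RNA was isolated by TRIzol and spin columns, treated with DNase, and libraries were made with KAPA RiboErase.

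Exon lengths came from the deposited tables. Symbols came from GENCODE M21 on GRCm38, which held 55227 of the gene identifiers and lacked 260. Counts were filtered with filterByExpr (minimum count 10, leaving 20718 genes), scaled with TMM and fitted in R 4.3.3 with edgeR 4.0.16 (quasi-likelihood F test, no covariate). The Benjamini-Hochberg adjustment covered all genes in the fit, and an adjusted p under 0.05 counted as a call. The design text calls the animals biological replicates. Levels per kilobase divide CPM by the union of annotated exons, which overstates the length of genes with rarely used exons. Copies are annotated transcripts with at least 95% identity over at least 100 bases of the coding sequence. The length offset is a lowess curve (span 0.3) of each library's log2 CPM deviation on log2 exon length, chosen after seeing the data. The pipeline was tested on simulated counts.

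Alternatives were DESeq2 1.42.0, limma-voom 3.58.1, other scalings and filters, removal of mitochondrial genes, a replicate block, a library split by whether Ttn or mt-Co1 has more counts, and leaving out each library. Members named singly were all of complex II, all of the isoform pairs and, elsewhere, the gene with the smallest p in each direction and the highest level per kilobase. The members, lists and pairs were chosen with earlier results of these data known, so no test over a list was made.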

Additional observations from a re-analysis of the deposited data

Results flagged for a closer look

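Of 64 groups of values searched (each named member's CPM, each isoform ratio and the members' median, in each group), 21 had a library far from the others by Dixon's test. Chance flags about 1 in 20, or 3.2 of 64, but these genes vary together, so the flags are not independent. Kidney disease replicate 6 accounted for 19, each as the highest of its group. In complexes II and III and the cytochromes it had 1024 CPM of Sdhb, 395 of Sdhd, 539.7 of Uqcrh, 575.6 of Uqcr11, 1069.5 of Cyc1 and 393.8 of Cycs. In complex IV it had 1386 CPM of Cox4i1, 10.94 of Cox4i2, 598.3 of Cox6b1, 760.6 of Cox7a1, 328.6 of Cox7a2, 121.7 of Cox8a and 598.5 of Cox8b. In complex V it had 1216 CPM of Atp5g1, 135.9 of Atp5g2, 1103 of Atp5g3 and 159.6 of Atp5mpl. Its log2 ratio of Atp5g1 to Atp5g2 plus Atp5g3 was -0.026, and its median deviation of the members was 0.53. The others were wild-type replicate 7, lowest for Cyc1 at 620.4 CPM, and wild-type replicate 8, highest for Cox4i2 at 7.48 CPM. The members' median deviation of -0.41 in wild-type replicate 7 was not flagged.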

How the results depend on the processing

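No member was called in either direction under any alternative run, except Cox6a2 with the gene length offset (1 lower, -0.18). Of 699 values of named members under alternatives, the other 698 stayed uncalled. The members' median ran from -0.04 to 0.09 with 1 library left out, was 0.12 with the library split as a covariate, 0.11 in libraries led by mt-Co1 and 0.12 in those led by Ttn, and was -0.09 without kidney disease replicate 6 and wild-type replicate 7. Calls over the whole table, here as a percent of the 20718 genes (0.811% higher and 0.473% lower), moved more. They ran from 0.323 to 0.946% higher and from 0.145 to 0.927% lower with 1 library left out. They were 1.83% and 1.26% by DESeq2, 0.241% and 0.174% in libraries led by mt-Co1, 0.00483% and 0.00965% in those led by Ttn, and 1.62% and 0.907% with the split as a covariate. Genes called lower were 0.314% with no filter, 0.743% with at least 1 CPM in 7 libraries, 1.24% without kidney disease replicate 6 and wild-type replicate 7, and 1.03% with the length offset.

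Both called isoform ratios stayed negative under every alternative run, and lost their call under some. Cox6a2 over Cox6a1 was -0.26 to -0.20 with 1 library left out, -0.18 without both libraries named above (adjusted p = 0.070 by exact permutation), -0.26 in libraries led by mt-Co1 and -0.22 in those led by Ttn. Cox7a1 over Cox7a2 was -0.15 to -0.12 with 1 library left out (called in all 15), and -0.10 and -0.18 in the subsets. With the 5 libraries led by Ttn p cannot go below 0.1, and elsewhere the cause was not tested. Of the ratios that were not called, Atp5g1 over Atp5g2 plus Atp5g3 (-0.02 to 0.02) and Cox6b2 over Cox6b1 (-0.25 to 0.19) changed sign with 1 library left out. Groups share replicate numbers. The deviations of same-numbered libraries had correlations of -0.20 to 0.42 over 7 pairs, and 2 of 7 correlated best with their own number. Whether this differs from chance was not tested. With a replicate block, 0.319% of genes were called higher and 0.241% lower, the members' median was 0.08, and the ratios were -0.24 and -0.14 (adjusted p = 0.0625 for each by exact permutation over 7 pairs).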
